A study of Rattus norvegicus with 6 samples.

Results

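RNA of rat aortic smooth muscle cells (RASMCs) was examined for 10 genes, the histone chaperone genes Asf1a, Asf1b, Chaf1a, Chaf1b, Hira, Daxx, Atrx and Nap1l1 and the peptidylarginine deiminase genes Padi2 and Padi3, out of 22574 gene symbols counted. The genes were chosen by symbol, with the counts and the calls of this same comparison already known, so their values are given as a description and no test of them is offered. RASMCs are primary smooth muscle cells taken from the aorta of male Sprague-Dawley rats aged 8 weeks and incubated in DMEM with serum. In 3 libraries the cells had received citrullinated histone H3 (H3CIT, 0.03 μM) with double-stranded DNA (dsDNA, 300 ng/ml), 2 components of extracellular traps, and in 3 control libraries they had received bovine serum albumin. No gene was deleted in either group, and the length of the exposure was not given for the sequenced cells. Cells of a single rat were spread over separate wells in the in vitro work, which is not stated for the sequenced libraries in particular. The 3 libraries of a group may therefore be wells, and their spread then does not cover differences between animals. The comparison asks how smooth muscle cells respond to the material of extracellular traps.

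Histone chaperones are proteins that hold histones outside the nucleosome and hand them to DNA, or take them off it. ASF1 receives new H3-H4 dimers and passes them either to CAF-1, which deposits them behind the replication fork, or to HIRA, which deposits the variant H3.3 throughout the cell cycle, whereas DAXX with ATRX places H3.3 at repeats and telomeres, and NAP1L1 mainly handles H2A-H2B. Peptidylarginine deiminases convert arginine into citrulline, and citrullination of histone H3 by PADI4 loosens chromatin and marks extracellular traps.

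The 6 libraries summed to between 17573905 and 18742395 counts. Correlations of log2 CPM (a count rescaled to a common library size after TMM correction, with 1 added) ran from 0.994 to 0.996 within groups and from 0.991 to 0.993 between groups, across genes, which are not independent replicates. Every pair of libraries differed by more than sampling noise, with a chi-square per gene of at least 3.27. Of 12591 genes with enough counts to be tested, 277 were called (edgeR's quasi-likelihood test, two-sided, Benjamini-Hochberg adjusted p under 0.05), which is 2.2% of the genes tested, with 1.94% called higher and 0.262% called lower after H3CIT+dsDNA. The smooth muscle markers Acta2, Tagln, Cnn1 and Smtn were called lower and Myh11 and Des were not called, out of 6 fixed markers. The 6 summed to between 5600 and 6163 CPM after H3CIT+dsDNA and to between 8357 and 9100 CPM in controls. Smtn was the lowest of them, with a mean of 55.8 CPM after H3CIT+dsDNA and 64.3 CPM in controls. Of 8 leukocyte and macrophage markers, 3 had enough counts to be tested and none of these was called, and the list summed to between 19.9 and 23.7 CPM after H3CIT+dsDNA and between 21.8 and 22.8 CPM in controls. Most of that sum was Csf1r, with 296 to 374 counts in a library and overlapping groups. Adgre1, Cd68 and Mpo were also counted in every library with overlapping groups, Ptprc and Itgam had 0 or 1 count in each, and Elane had 2 counts in control replicate 1 and none elsewhere. Aif1, too low to be tested, had 8, 9 and 9 counts in challenged cells and 2, 2 and 3 in controls, and the part of this in the results below was not tested. In bulk RNA, fewer cells of a type and less RNA per cell cannot be told apart.

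Asf1a, which encodes one of the paired ASF1 proteins that carry H3-H4 dimers, was the only gene among the 10 that was called, and it was higher after H3CIT+dsDNA. The other 9 genes were not called, and their log2 fold changes lay between -0.13 and 0.27. The median log2 fold change of the 10 genes was -0.022, beside -0.0013 over all genes tested. All 10 genes had enough counts to be tested. The share called, 1 of 10, stands beside the 2.2% of all genes, and nothing is read from it because the genes were picked with this comparison in view.

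**Figure D1:**
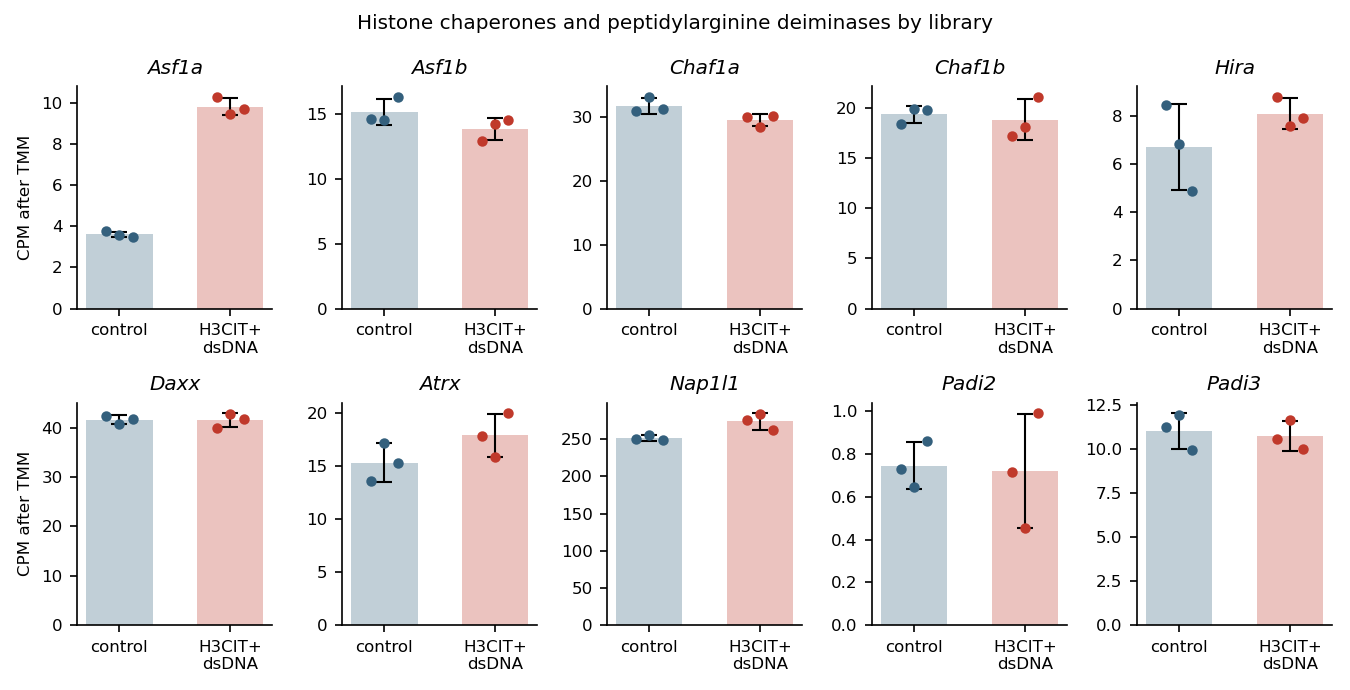
CPM after TMM of the 10 genes in each library; points are libraries, bars the mean of 3 libraries and whiskers the SD, each panel with its own axis from 0. Asf1a stands at 9.48 to 10.3 CPM after H3CIT+dsDNA and at 3.50 to 3.75 CPM in controls, and the points of most other genes lie at like heights in both groups.

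Reads counted at Asf1a numbered 187, 167 and 176 in challenged RASMCs, whereas the control libraries held 67, 66 and 65. The mean level was 9.83 ± 0.434 CPM (SD, n = 3) under challenge, compared with 3.60 ± 0.132 CPM (SD, n = 3) without it. The lowest library of the challenged group lay well above the highest control. The log2 fold change was 1.45 (standard error 0.125, 95% interval 1.18 to 1.72), a fold of 2.73, and 102 of the 12591 genes tested had a larger log2 fold change. Leaving out any single library moved this value to between 1.41 and 1.48.

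The 3 control counts of Asf1a were consecutive whole numbers. Their SD was 1 count, where counting noise alone, the square root of the mean of 66, is 8.12 counts. In the H3CIT+dsDNA libraries the SD was 10.02 counts beside a square root of 13.3. No other of the 10 genes had such a run in either group. Over genes with a control mean of at least 20 counts, a run of 3 consecutive control counts was found in 21 of 143 called genes that moved by more than 0.5 on the log2 scale, and in 23 of 11638 other tested genes. Among genes with a control mean from 40 to 100 counts, where Asf1a lies, the numbers were 9 of 26 and 7 of 1206. A control SD as small against the square root of the mean as that of Asf1a was found in 9 of the 143 called genes and in 67 of the 11638 others. Asf1a itself is counted among the called genes in each of these comparisons, and the calls depend on the spread within groups. The part of these narrow control counts in the change of Asf1a was not tested.

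**Figure D2:**
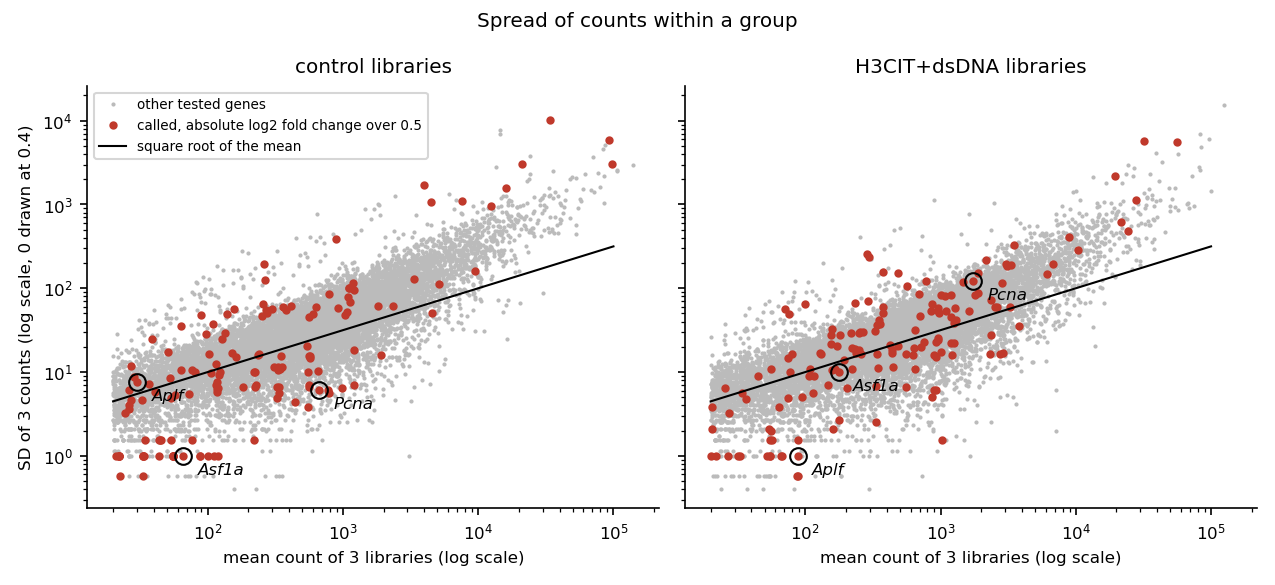
SD against mean of the 3 raw counts of a group, both on log axes, for tested genes with a mean of at least 20 counts, in controls (left) and after H3CIT+dsDNA (right); red points are called genes that moved by more than 0.5 on the log2 scale, grey points the others, and the line is the square root of the mean. Asf1a lies far under the line in controls, at an SD of 1, Pcna lies under it in controls, and Aplf lies at an SD of 1 after H3CIT+dsDNA.

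Asf1b, the paralogue of Asf1a that is tied to dividing cells, was read 234, 250 and 263 times in challenged cells, compared with 261, 270 and 303 times in controls. In CPM the 3 challenged libraries were below the 3 controls, at 12.9 to 14.5 CPM against 14.5 to 16.3 CPM, the gap between the groups being smaller than either SD. The log2 fold change was -0.13 (standard error 0.0854, 95% interval -0.32 to 0.055), and Asf1b was not called. Within each library the count of Asf1a over that of Asf1b was 0.799, 0.668 and 0.669 in challenged cells, compared with 0.257, 0.244 and 0.215 in controls. The mean ratio was 2.99 times as large in the challenged group. Counts of both genes together were 421, 417 and 439 against 328, 336 and 368, so the groups did not overlap in their sum either. Gene length is not taken into account in these ratios, so they compare libraries and do not compare the levels of both genes.

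Chaf1a and Chaf1b encode the large and the middle subunit of CAF-1, the complex that loads H3-H4 onto newly copied DNA. Chaf1a reached 545, 501 and 548 counts, compared with 552, 617 and 580 in controls, with a log2 fold change of -0.11 (95% interval -0.24 to 0.027). Its 3 challenged libraries were the 3 lowest in CPM, at 28.4 to 30.2 against 30.9 to 33.2. For Chaf1b the counts of 312, 320 and 384 overlapped with those of controls, at 329, 370 and 367. Its log2 fold change was -0.041 (95% interval -0.23 to 0.14). The ratio of Chaf1a to Chaf1b counts was 1.58 ± 0.160 (SD, n = 3) after H3CIT+dsDNA and 1.64 ± 0.0535 (SD, n = 3) in controls, a difference within the spread.

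Hira, which encodes the core subunit of the complex that deposits H3.3 independently of replication, reached 160, 134 and 144 counts in challenged cells, compared with 151, 127 and 91 counts in controls. Control replicates 3 and 2 were the lowest of the 6 libraries in CPM, whereas control replicate 1 lay among the challenged ones, so the groups overlapped. The log2 fold change was 0.27 (standard error 0.171, 95% interval -0.100 to 0.64), and without control replicate 3 it was 0.087. Daxx, the H3.3 chaperone that also binds PML bodies, gave 725, 755 and 760 counts, compared with 757, 756 and 778 in controls. Its log2 fold change was -0.0044 (95% interval -0.12 to 0.11), so that a fold change outside 0.921 to 1.08 lies outside the interval. Atrx, the chromatin remodeller that works with DAXX, gave 323, 280 and 363 counts, compared with 242, 319 and 283 in controls. The groups overlapped, and the log2 fold change was 0.22 (standard error 0.104, 95% interval -0.0036 to 0.45).

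Nap1l1, a chaperone of H2A-H2B that also carries histones into the nucleus, was the most abundantly counted of the 10 genes, at 4997, 5009 and 4759 counts compared with 4457, 4741 and 4609 in controls. The mean level was 274 ± 11.1 CPM (SD, n = 3) in challenged cells, compared with 251 ± 3.80 CPM (SD, n = 3) in controls. The challenged libraries were all above the controls, by a log2 fold change of 0.13 (standard error 0.0374, 95% interval 0.044 to 0.21), which did not reach a call. In 4 of the 10 genes (Asf1a and Nap1l1 higher, Asf1b and Chaf1a lower) the groups did not overlap in CPM, beside 19.1% of all genes tested in either direction and 10.7% in the higher direction. The smallest p-value that a two-sided exact permutation test can reach with 3 libraries a group is 0.1.

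**Figure D3:**
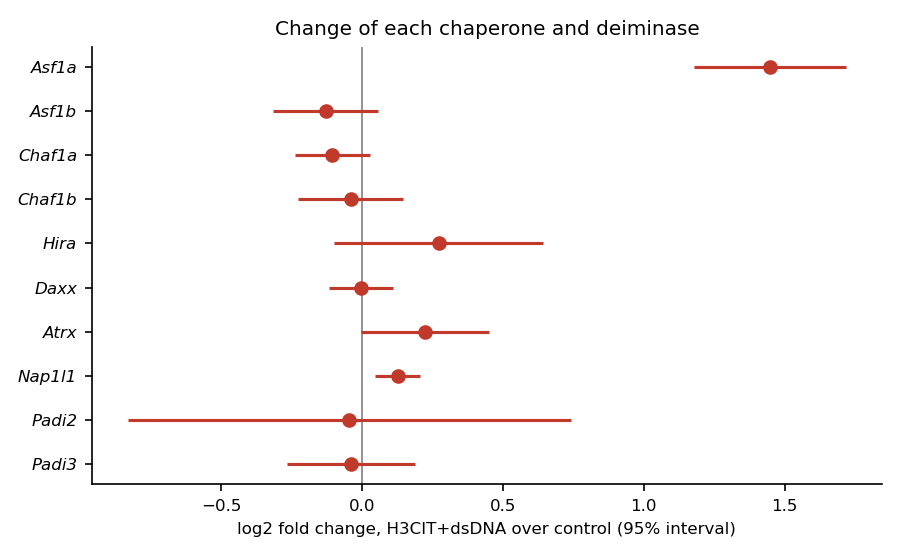
Log2 fold change of the 10 genes, H3CIT+dsDNA over control, from edgeR; points are estimates and lines 95% intervals. The interval of Asf1a runs from 1.18 to 1.72 and that of Nap1l1 from 0.044 to 0.21, and the intervals of the other 8 genes hold 0.

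Padi2 encodes the most widely expressed peptidylarginine deiminase, and Padi3 an enzyme best known from hair follicles and skin. Few reads fell on Padi2, namely 13, 8 and 18 in challenged cells compared with 13, 12 and 16 in controls. Its groups overlapped, and the 95% interval of its log2 fold change of -0.046 ran from -0.83 to 0.74, so that only a change beyond 0.561-fold or 1.67-fold lies outside it at this depth. Padi3 was counted 191, 205 and 181 times, compared with 200, 221 and 184 times in controls. Its log2 fold change was -0.040 (standard error 0.105, 95% interval -0.27 to 0.19), and its groups overlapped.

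The remaining genes of the family were at or near 0. Padi4, which encodes the deiminase that the study deleted in smooth muscle cells of mice, had no count in any of the 6 libraries. The study also measured PAD4 in RASMCs by RT-PCR and western blot, and reported it raised after cholesterol loading. RASMCs without cholesterol loading were the reference in that comparison. Cholesterol loading is not stated for the sequenced cells, and why Padi4 had no count in them was not tested. Padi6, a gene of the oocyte, had no count in any library either. Padi1, an enzyme of the epidermis, had 1 count in control replicate 2 and none elsewhere. A count of 0 allows up to 3 counts in a library, between 0.160 and 0.171 CPM, or 3 counts of 108948513 over all libraries, 0.0275 CPM, for counting error only. A fall of these 3 genes, or a rise that stayed under this limit, was therefore not detectable at this depth. All 5 deiminase genes lie in a single cluster on chromosome 5 in the RefSeq annotation of GRCr8, in the order Padi6, Padi4, Padi3, Padi1 and Padi2, with 2 other genes between Padi1 and Padi2 and none between the rest. Within this cluster, reads were counted at Padi3 and Padi2 in all 6 libraries.

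Promoters are shown for the paralogue Asf1b, for Padi3 and for Pcna, the last being a called partner of CAF-1 described below. Each is the RefSeq window of GRCr8 from 250 bases before the start of the gene to 50 bases after it, written 5′ to 3′ on the strand of the gene, and capitals mark CCAAT boxes on either strand (CCAAT or its reverse complement ATTGG). A promoter was matched for 9 of the 10 genes, and Asf1a, the called one, was not matched. The window of Asf1b is chr19:41100303-41100602 (minus strand), that of Padi3 is chr5:158400144-158400443 (minus strand) and that of Pcna is chr3:139955771-139956070 (minus strand).
Asf1b: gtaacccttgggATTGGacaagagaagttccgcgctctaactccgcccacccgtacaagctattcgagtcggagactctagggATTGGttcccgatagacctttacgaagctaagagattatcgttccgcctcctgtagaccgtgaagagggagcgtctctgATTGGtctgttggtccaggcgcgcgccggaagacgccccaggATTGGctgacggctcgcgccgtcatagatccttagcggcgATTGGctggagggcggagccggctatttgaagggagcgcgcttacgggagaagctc
Padi3: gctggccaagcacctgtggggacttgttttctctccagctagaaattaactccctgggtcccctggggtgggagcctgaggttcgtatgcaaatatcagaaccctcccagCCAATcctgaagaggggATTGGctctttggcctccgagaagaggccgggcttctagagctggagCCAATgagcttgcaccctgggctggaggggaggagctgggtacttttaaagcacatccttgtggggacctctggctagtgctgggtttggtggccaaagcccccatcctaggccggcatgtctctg
Pcna: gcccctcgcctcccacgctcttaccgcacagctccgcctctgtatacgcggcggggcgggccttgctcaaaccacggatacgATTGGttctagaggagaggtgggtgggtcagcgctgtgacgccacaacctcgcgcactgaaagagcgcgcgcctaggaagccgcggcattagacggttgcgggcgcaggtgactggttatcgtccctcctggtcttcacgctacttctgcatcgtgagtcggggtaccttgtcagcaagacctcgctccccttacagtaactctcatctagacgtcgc

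Asf1b had 5 CCAAT boxes in the window, Atrx 4, Padi3 3, Chaf1a 2, and Nap1l1 and Pcna 1 each, and Chaf1b, Hira, Daxx and Padi2 had none. At least 1 box was found in 5 of the 9 matched promoters, beside 37.7% of 27457 promoters of the same length. A site spelled as for E2F factors, which drive genes of S phase (TTTCCCGC, TTTGGCGC, TTTCGCGC or TTTGCCGC, both strands), was found in 0 of the 9 promoters, none of a called gene, and in that of Pcna neither, beside 2.25% of all promoters and 8 of 15 matched promoters of the fixed list of S-phase genes. Only these 4 spellings were searched, so a close spelling was not counted. The Chaf1a window, for example, holds ttcccgccaaa, whose other strand begins TTTGGCGG and differs from TTTGGCGC in the last letter. These matches describe the letters in the window only.

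Genes that work with these chaperones were taken from fixed lists and tested in the same fit. The lists were chosen with earlier results of these data known, so their calls and p-values are given as a description. Beside the 2.2% of all genes called, nothing is read from the number called in a list. Genes named without a call beyond the largest changes of a list were picked for their roles after their values were seen. Of 12 genes that supply H3-H4 at replication, all tested, 1 was called. It was Pcna, the sliding clamp that recruits CAF-1 to the fork, which reached 1658, 1681 and 1880 counts in challenged cells, compared with 667, 666 and 656 counts in controls. Its log2 fold change was 1.42 (standard error 0.0537, edgeR, adjusted p = 1.71e-09). The SD of its control counts was 6.08, where the square root of the mean is 25.7. In challenged cells the SD was 122, where the square root of the mean is 41.7. The other 11 genes were not called. They included the CAF-1 subunit gene Rbbp4 (log2 fold change -0.082), Nasp, a chaperone of soluble H3-H4 (-0.020), Hat1, the acetyltransferase of new H4 (-0.028), and Mcm2, the helicase subunit that binds parental H3-H4 (-0.17, edgeR, adjusted p = 0.0868). Tlk2, a kinase that phosphorylates ASF1, moved by 0.18 on the log2 scale, from 487, 603 and 580 counts in controls to 645, 600 and 606, and was not called (edgeR, adjusted p = 0.284). The median log2 fold change of the list was -0.012, beside -0.0013 over all genes tested.

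Of the H3.3 partners, 6 genes were tested and none was called by edgeR, in DESeq2 or in any other alternative. Among the 6 tested, 1 had an unadjusted p under 0.05. The share of all genes tested under that level was not counted, here or for the lists below, so nothing is read from such counts. The symbol H3f3a was absent from the counts. Ubn2, a subunit of the HIRA complex, had a log2 fold change of 0.30 (edgeR, adjusted p = 0.217) and Dek, an H3.3 chaperone, one of 0.15 (edgeR, adjusted p = 0.494). H3f3b, which encodes H3.3 itself, gave 7678, 7795 and 7220 counts, compared with 7747, 7940 and 7855 in controls, with overlapping groups. The median of the list was 0.012.

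Of 17 tested genes for H2A-H2B and other chaperones, 1 was called. Aplf, which encodes a histone chaperone of DNA repair, reached 87, 88 and 89 counts in challenged cells, compared with 29, 23 and 38 counts in controls. Its log2 fold change was 1.58 (standard error 0.209, edgeR, adjusted p = 0.000591), and its challenged libraries held 3 consecutive whole numbers, with an SD of 1 beside a square root of the mean of 9.38. Such a run was looked for over genes with a challenged mean of at least 20 counts. It was found in 11 of 154 called genes that moved by more than 0.5 on the log2 scale, Aplf among them. In the others it was found in 32 of 11648, and its part in the change of Aplf was not tested. The other 16 genes were not called and lay between -0.087 and 0.29 in log2 fold change. Both FACT subunit genes were among them, Supt16h at 0.13 and Ssrp1 at 0.013, as were the relatives of Nap1l1, with Nap1l4 at -0.052 and Nap1l3 at 0.29 (edgeR, adjusted p = 0.129). The median of the list was 0.00059, and the symbol Spty2d1 was absent from the counts.

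**Figure D4:**
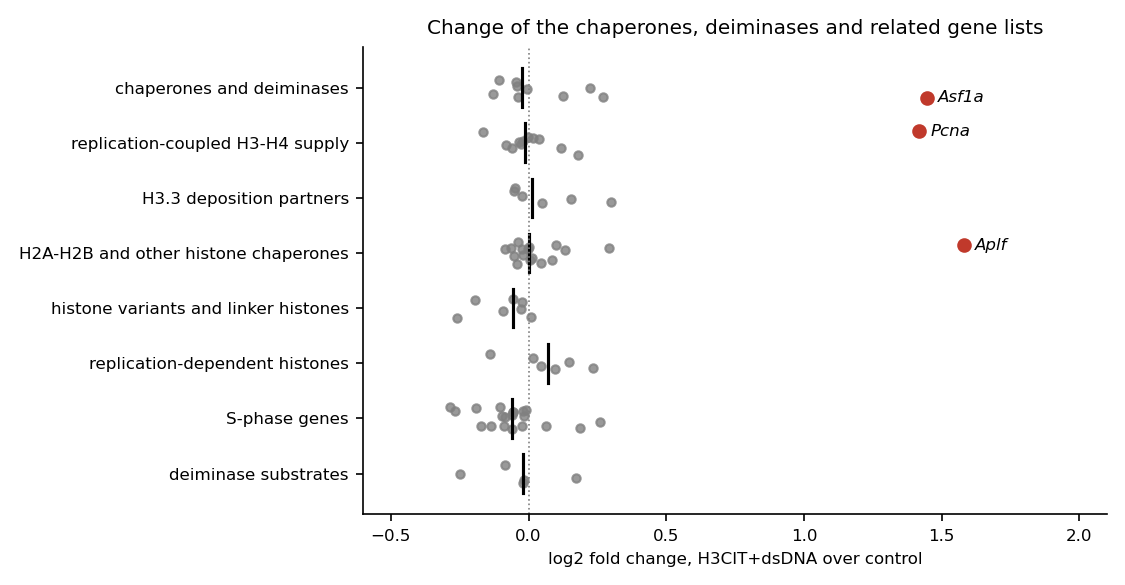
Log2 fold change, H3CIT+dsDNA over control, of each tested gene of the 10 chaperones and deiminases and of 7 related lists; red points are called genes, grey points those not called, and black bars the median of a list. Asf1a, Pcna and Aplf stand between 1.42 and 1.58, and every grey point lies between -0.29 and 0.30.

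None of the genes of histones handled by these chaperones was called by edgeR, DESeq2 or limma-voom. Among histone variants and linker histones 7 genes were tested, 3 of them at an unadjusted p under 0.05. H2afv, one of the paired genes of H2A.Z, stood at 549, 511 and 495 counts where controls held 648, 604 and 646, which is -0.26 on the log2 scale (edgeR, adjusted p = 0.0729), and H2afx, the variant phosphorylated at DNA breaks, was at -0.20 (edgeR, adjusted p = 0.320). H2afv passed the threshold with upper-quartile scaling, with no filter and with robust dispersion estimates. Of 35 replication-dependent histone genes, whose mRNAs mostly lack a poly(A) tail and are poorly caught by mRNA kits, 6 had enough counts to be tested, and none was called or reached an unadjusted p of 0.05. Hist1h2af had a log2 fold change of 0.24 (edgeR, adjusted p = 0.720) and Hist2h2be one of 0.15 (edgeR, adjusted p = 0.870).

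In the S-phase list 20 genes were tested, none was called by edgeR and 5 had an unadjusted p under 0.05. Nothing is read from the latter count, since the share of all genes under that level was not counted. DESeq2 called 1 of the 20, Rrm2, a subunit of ribonucleotide reductase. Log2 fold changes were below 0 in 17 of the 20, with a range of -0.29 to 0.26 and a median of -0.061. Over all genes tested the median was -0.0013, and the share of genes below 0 was not counted. Above 0 were Mki67 at 0.26 (edgeR, adjusted p = 0.0975), Top2a at 0.19 (edgeR, adjusted p = 0.113) and Mcm4 at 0.064. Cdt1, which licenses origins, was at -0.29 (edgeR, adjusted p = 0.313) and Gins1, part of the replicative helicase, at -0.27 (edgeR, adjusted p = 0.278). Pcna, the sliding clamp at the fork, is counted in the list of H3-H4 supply and not in this one. That no gene of the S-phase list was called by edgeR depends on this placement. The part of S phase in the changes of Pcna and Asf1a was not tested. Of the known non-histone substrates of the deiminases 5 genes were tested, none was called by edgeR or in any alternative, and 1 had an unadjusted p under 0.05. Gfap was at -0.25 (edgeR, adjusted p = 0.786) and Mbp at 0.17 (edgeR, adjusted p = 0.817), and Vim, the abundant filament protein vimentin, was at -0.015.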

How the data were processed

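Whole-gene read counts of 6 RASMC libraries, 3 after H3CIT+dsDNA and 3 controls, were used. The authors deposited these values as raw counts per gene symbol, not normalized; per the labels, TopHat2 2.1.1, Cufflinks 2.2.1 and Cuffdiff appear in the submitters' processing notes, and the study's methods give a stranded mRNA library kit, the Rnor6.0 genome and HTSeq. The strand setting of the counting was not given in the sources used here, so reads of overlapping or antisense genes may not be separable. Groups followed the sample titles. The 10 genes and the lists were chosen with earlier results of these data known.

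Genes were kept by the expression filter of edgeR (version 4.0.16, R 4.3.3), scaled by TMM and tested by its quasi-likelihood fit. P-values were two-sided and were adjusted by Benjamini-Hochberg across the 12591 genes tested, and calls were made under an adjusted p of 0.05. Intervals are 95% intervals of the fitted log2 fold change. Library totals of 17573905 to 18742395 counts set the precision, and the limit for a count of 0 covers counting error only. The 10 genes and the other deiminases were all named; from each other list the called genes were named, and the largest changes until 2 genes were given. Names beyond this rule were chosen after their values were seen. Alternatives were DESeq2 (1.42.0), limma-voom (limma 3.58.1), other scalings, other filters, robust dispersion, the replicate number as a block, and leaving out single libraries. The code was tested on simulated counts. Promoters came from the RefSeq table of GRCr8, a build other than that of the counts, and were matched by symbol only.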

Additional observations from a re-analysis of the deposited data

How the results depend on the processing

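The call of Asf1a was kept in all 15 alternatives, with a log2 fold change of 1.41 to 1.48, and the other 9 genes stayed uncalled wherever they were tested. Padi2 had too few counts to be tested where at least 10 counts were required in every library. The log2 fold changes of Chaf1b, Daxx, Padi2 and Padi3 turned positive in 1 to 3 alternatives, none with a call. Pcna and Aplf stayed called, with adjusted p-values of 4.91e-89 to 4.09e-07 and of 1.47e-06 to 0.00559.

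Over all genes, 277 were called, and 164 to 357 with a library left out, the lowest count arising without H3CIT+dsDNA replicate 1, and 184 arising without control replicate 1. Of these 244 were higher (147 to 300, 147 and 154 without the same libraries) and 33 lower (17 to 57, the lowest without H3CIT+dsDNA replicate 1, the highest without control replicate 3), and lower calls were 58 with no filter and 50 with robust dispersion. The H3-H4 supply list had 2 calls with robust dispersion and 1 to 2 with a library left out, the added gene being Mcm2 in both cases (without control replicate 1). Histone variants had 1 call, H2afv, with upper-quartile scaling, no filter and robust dispersion. Replication-dependent histones had 0 to 1 with a library left out (Hist1h2an, without control replicate 2). S-phase genes had 1 call with DESeq2 (Rrm2), 2 with no filter (Rrm2 and Mki67) and 1 with robust dispersion (Rrm2). They had 0 to 1 with a library left out (Top2a, without H3CIT+dsDNA replicate 2). In these calls Rrm2 was lower after H3CIT+dsDNA, and Mki67 and Top2a were higher. The cause of these changes was not tested. With the replicate number as a block 212 genes were called, 200 of them shared, and Asf1a stayed at 1.45. Deviations of same-numbered libraries correlated at -0.056, -0.0076 and 0.040. The labels give these libraries the same number and no more, and so few correlations cannot show whether they shared a batch. At this depth the counts of Padi2 limit what can be seen.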
